A study of Mus musculus with 10 samples.

Results

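The genes described here are 36 mouse genes that mature fat cells express, chosen by name as a readout of host fat pad tissue in whole mammary tumors. They were chosen with earlier results of these data known, so shares set beside those of all genes are descriptions. All 36 had a row in the count table, 35 under the listed symbol and 1, Tusc5, under the newer symbol Trarg1, among 17864 genes in all. The table held RNA-seq counts per gene for 10 whole tumors, 5 sgCon and 5 sgTaz. The tumors of both groups came from Cas9-carrying cells of 4T1, an established line of BALB/c mammary carcinoma, with the control guide RNA in sgCon and a guide RNA against Wwtr1, the gene of the Hippo transducer TAZ, in sgTaz. The study's methods place the tumors in the fourth mammary fat pad of female mice of 6 to 8 weeks and name BALB/c and SCID hosts, and the labels of these tumors do not say which host was used. No other treatment was labelled for either group. A whole tumor mixes cancer cells with host cells, so fewer adipocytes and less RNA per adipocyte could not be told apart, and reads of the implanted line and of its host were not separated.

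Adipocytes store energy as triglyceride in a single large lipid droplet that is coated by perilipins, take up fatty acids that lipoprotein lipase frees from circulating lipoproteins, and release them again through lipolysis. The nuclear receptor PPARγ and the factor C/EBPα drive their differentiation and keep the program on. The cells also secrete hormones, among them adiponectin, leptin and, in mice, resistin. The mammary gland of the mouse lies embedded in a pad of such cells.

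The 10 libraries held 12185383 to 19595821 counts, with a median of 17155103 in sgCon and 15566873 in sgTaz. A count of 3, the limit that a count of 0 allows, stood for 0.153 to 0.246 CPM (the count of a gene scaled to a common library size, here before and elsewhere after TMM normalization) depending on the library, which covers counting error only. The targeted gene Wwtr1 measured 192, 181, 115, 171 and 156 CPM in sgCon tumors 1 to 5 and 86.6, 104, 110, 139 and 102 CPM in sgTaz tumors 1 to 5, a log2 fold change of -0.59. The ranges of the groups overlapped for Wwtr1, since sgTaz tumor 4 lay above sgCon tumor 3. A guide RNA changes the DNA and need not remove the transcript, so this level does not measure the edit. Tumor numbers only name separate tumors and do not pair the groups.

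Of the 36 adipocyte genes, 26 passed the filter on low counts and were tested among 14816 genes. By edgeR's quasi-likelihood test with Benjamini-Hochberg adjustment over all genes, 0 of the 26 differed between sgTaz and sgCon, against 0.00675% of all genes tested. Their adjusted p-values ran from 0.0960 to 0.992. At an unadjusted p under 0.05, 7 were higher in sgTaz, against 9.86% of all genes, and 2 were lower, against 11.9%. By an exact permutation test of 5 against 5 tumors, only 2 members had a p under 0.05, Agpat2 and Dgat1. The share of all genes was not computed for that test. Among the members higher by edgeR, its p was 0.571 for Car3, 0.540 for Pck1, 0.302 for Thrsp and 0.222 for Gpd1. It was 0.175 for Cd36 and 0.0556 for Pnpla2. DESeq2 called 0 higher, against 3.61% of all genes, and 1 lower, Dgat1, against 3.6%. With limma-voom and sample quality weights, 1 was called higher, Pnpla2, against 4.63%, and 1 lower, again Dgat1, against 5.8%. Fold changes were nevertheless mostly above 0 (log2 scale), in 23 of 26 genes against 47.0% of all genes tested. The median log2 fold change was 0.47 over these 26 genes and -0.02 over all genes, with a range from -1.03 for G0s2 to 2.29 for Car3. A gene could pass the filter through one group alone, so these counts describe the 26 genes and not the whole list.

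The spread between tumors of a group was wide for these genes. The median within-group SD of log2 CPM was 0.855 over the 26 genes and 0.226 over all genes. It was 0.600 in sgCon and 1.05 in sgTaz, against 0.237 and 0.193 for all genes in the same groups. In 23 of the 26 the SD was larger in sgTaz, against 38.4% of all genes. A within-group SD above 1 was found in 11, against 3.03%. Some members had very few counts in a tumor, such as 0 for Plin1 and Thrsp in sgTaz tumor 2 and 1 for Nnat in sgTaz tumor 1. Counting error adds to the SD of such genes, and the SD of genes of like count was not computed.

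**Figure D1:**
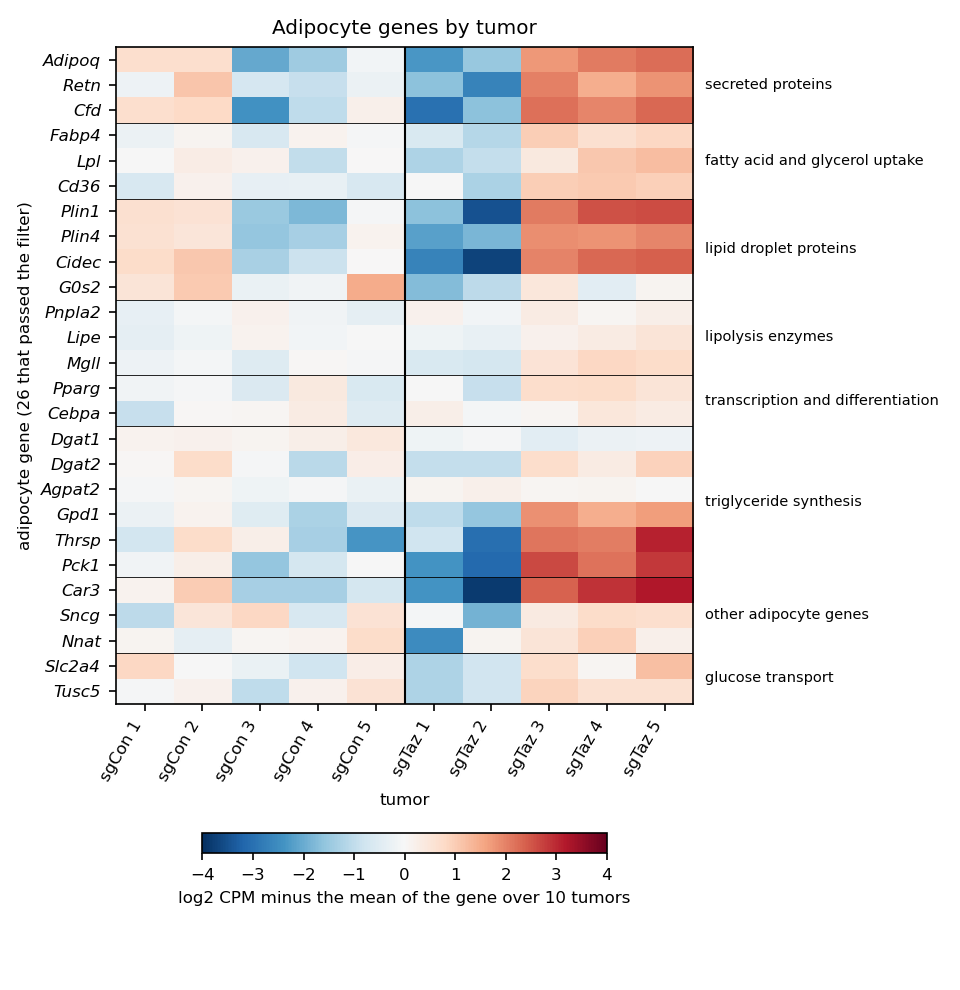
Log2 CPM of the 26 tested adipocyte genes (rows, by role) in the 10 tumors (columns), as the difference from the mean of each gene over all tumors, with blue below and red above that mean. The rows of Adipoq, Cfd, Plin1, Cidec, Pck1 and Car3 are among the darkest, red in sgTaz tumors 3, 4 and 5 and blue in sgTaz tumors 1 and 2, and the row of Dgat1 is nearly white.

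The level of the list differed more among the 5 sgTaz tumors than between the groups. The mean log2 CPM over the 26 genes was 2.57, 2.94, 2.004, 2.006 and 2.50 in sgCon tumors 1 to 5. In the sgTaz tumors it was 1.42, 1.15, 3.67, 3.65 and 3.84. All 5 sgCon tumors lay between sgTaz tumors 1 and 2 on the low side and sgTaz tumors 3, 4 and 5 on the high side. Group means were 2.40 ± 0.40 (SD, n = 5) in sgCon and 2.75 ± 1.34 (SD, n = 5) in sgTaz, so the difference of 0.34 was smaller than the spread between sgTaz tumors. It was 0.07 without sgTaz tumor 5 and 0.74 without sgTaz tumor 2. Summed over all 36 genes, the level was 312, 399, 297, 323 and 327 CPM in sgCon and 277, 232, 626, 613 and 682 CPM in sgTaz. The tumor with the highest sum, sgTaz tumor 5, held the highest value of 12 of the 26 genes, and the tumor with the lowest, sgTaz tumor 2, held the lowest value of 12.

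After these values were seen, the same order was counted over all genes. Tumors 3, 4 and 5 of sgTaz were the 3 highest of the 10 in 17 of the 26 adipocyte genes, against 4.37% of all genes tested. In 6 of these, Retn, Plin4, Cidec, Car3, Pck1 and Mgll, sgTaz tumors 1 and 2 were also the 2 lowest, against 0.209%. For 18 of the 26, all sgCon tumors lay between the lowest and the highest sgTaz tumor, against 11.6%. Complete separation of the groups was rare both among these genes and among all genes. In 0 of the 26 did every sgTaz tumor lie above every sgCon tumor, against 2.44% of all genes, and 1, Dgat1, lay below, against 2.13%.

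Secreted proteins came first by role. Adipoq, which codes for adiponectin, is a defining gene of mature adipocytes and lies at chr16:23146536-23158028 (plus strand; mm10, here and below). It measured 3.90, 3.95, 0.499, 0.833 and 2.26 CPM in sgCon tumors 1 to 5 and 0.382, 0.775, 8.41, 10.8 and 11.9 CPM in sgTaz tumors 1 to 5. Tumors 3, 4 and 5 of sgTaz were above every sgCon tumor, tumor 1 was below all of them, and tumor 2 was below all but sgCon tumor 3. The means were 2.29 ± 1.64 and 6.44 ± 5.49 CPM (SD, n = 5). The log2 fold change was 1.48 (SE 0.84), with an adjusted p of 0.328 by edgeR's quasi-likelihood test and a two-sided p of 0.437 by an exact permutation test of 5 against 5 tumors, whose smallest possible p is 0.00794.

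Cfd, the gene of the serine protease adipsin (complement factor D), at chr10:79890853-79892655, had nearly the same order at a higher level. Its values were 22.3, 24.4, 2.50, 6.83 and 16.2 CPM in sgCon and 1.65, 4.39, 64.7, 54.4 and 69.3 CPM in sgTaz. Within sgTaz the lowest and highest tumor thus stood far apart, and within sgCon tumor 3 was again the lowest. The means were 14.5 ± 9.56 and 38.9 ± 33.2 CPM (SD, n = 5), a log2 fold change of 1.42 (SE 0.87) with an edgeR adjusted p of 0.361. Retn, the gene of resistin, measured 0.901, 2.45, 0.624, 0.4996 and 0.890 CPM in sgCon and 0.255, 0.0646, 4.66, 3.16 and 4.00 CPM in sgTaz (log2 fold change 1.16, SE 0.82). All sgCon tumors lay between sgTaz tumors 1 and 2 below and sgTaz tumors 3, 4 and 5 above. Lep, the gene of leptin, did not pass the filter, with raw counts of 11, 9, 7, 2 and 8 in sgCon and 0, 1, 20, 13 and 25 in sgTaz.

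**Figure D2:**
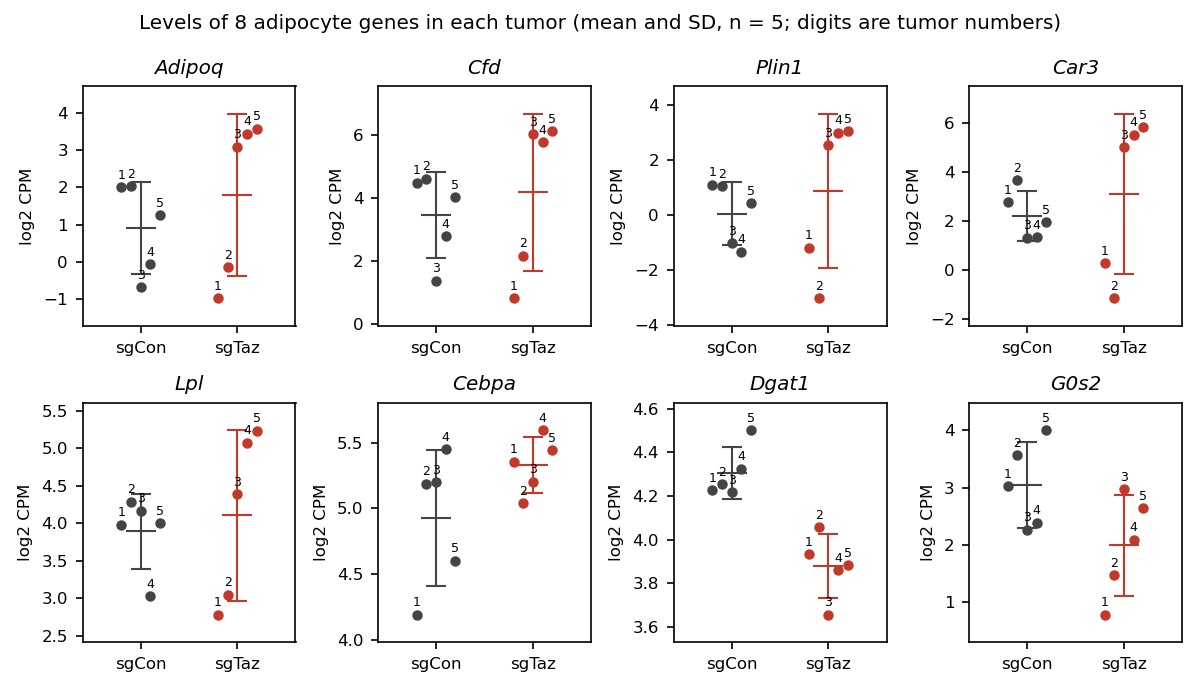
Log2 CPM of 8 adipocyte genes in each tumor (dots, numbered by tumor; grey sgCon, red sgTaz), with the mean and SD over 5 tumors of each group; the vertical scale differs between panels. In the panels of Adipoq, Cfd, Plin1 and Car3 sgTaz tumors 3, 4 and 5 lie above all sgCon tumors while sgTaz tumors 1 and 2 lie near or below the lowest of them, whereas in the panel of Dgat1 the groups do not overlap.

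Promoter sequences are shown for the reference gene of the pattern, Adipoq, and for members that hold a match to the C/EBP motif TTGCNNAA, because C/EBPα is itself a member. RefSeq windows of 300 bases (250 before and 50 after a start; GRCm38.p6, the build of mm10) were found for 24 of the 36 genes, 31 windows in all. On both strands, 4 of the 31 windows (12.9%) held the C/EBP motif, those of Cidec, Lep, Plin1 and Pparg, against 10.8% of all 32851 windows. The nuclear receptor element AGGTCA stood in 6 (19.4%), against 16.3% of all windows, and a direct repeat of that element, with 1 base of any kind between its copies, in 0, against 0.0396%. The TATA box letters TATAAA stood in 2 (6.45%), against 13.6%. A match is a description of the letters and no site of binding. The 250 bases before the start are printed in the direction of the gene, with C/EBP matches in capitals, for Adipoq at chr16:23146286-23146535 (plus strand), Lep at chr6:29059971-29060220 (plus strand), Cidec at chr6:113434765-113435014 (minus strand, a start inside the annotated gene) and Pparg at chr6:115421816-115422065 (plus strand, likewise inside the gene). The Plin1 window overlaps an annotated untranslated exon and is not printed.
Adipoq: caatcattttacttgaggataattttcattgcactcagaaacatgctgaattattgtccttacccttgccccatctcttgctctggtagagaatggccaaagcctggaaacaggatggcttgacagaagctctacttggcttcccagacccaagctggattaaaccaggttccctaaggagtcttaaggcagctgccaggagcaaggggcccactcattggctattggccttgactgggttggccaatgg
Lep: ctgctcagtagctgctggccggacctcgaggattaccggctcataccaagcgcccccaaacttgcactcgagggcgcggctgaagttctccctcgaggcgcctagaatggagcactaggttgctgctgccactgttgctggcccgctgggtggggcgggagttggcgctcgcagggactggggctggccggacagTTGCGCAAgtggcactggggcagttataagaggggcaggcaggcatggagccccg
Cidec: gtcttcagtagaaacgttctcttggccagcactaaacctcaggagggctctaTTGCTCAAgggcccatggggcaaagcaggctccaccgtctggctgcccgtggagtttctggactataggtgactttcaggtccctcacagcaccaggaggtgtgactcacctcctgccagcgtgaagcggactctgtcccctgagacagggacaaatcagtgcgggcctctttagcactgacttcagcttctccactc
Pparg: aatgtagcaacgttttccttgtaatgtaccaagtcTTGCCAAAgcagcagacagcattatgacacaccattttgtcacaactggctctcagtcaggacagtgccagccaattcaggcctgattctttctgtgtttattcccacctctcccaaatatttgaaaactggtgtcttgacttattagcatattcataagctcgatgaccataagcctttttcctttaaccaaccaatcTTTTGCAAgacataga
The Adipoq window held no match to any of these motifs. The first base of the match lay 55 bases before the start in Lep, 198 before it in Cidec, and 215 and 16 before it in Pparg. Members with and without a match were found among those that followed Adipoq from tumor to tumor, as the values below show.

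Genes of the lipid droplet surface spread widely. Plin1, the gene of perilipin 1, which coats the droplet of mature fat cells and gates lipolysis, lies at chr7:79720218-79732903 on the minus strand. It measured 2.04, 1.95, 0.374, 0.278 and 1.23 CPM in sgCon and 0.318, 0, 5.79, 7.93 and 8.29 CPM in sgTaz. The library of sgTaz tumor 2 held no Plin1 read, while the 3 highest values of the series also belonged to sgTaz. The log2 fold change was 1.91 (SE 0.99; edgeR adjusted p 0.285). Plin4, a perilipin of adipocytes and muscle, was at 6.85, 6.16, 1.43, 1.67 and 4.86 CPM in sgCon and 0.891, 1.16, 16.4, 15.5 and 17.3 CPM in sgTaz, a log2 fold change of 1.29 (SE 0.78). Cidec, whose product fuses small droplets into large ones, was at 3.96, 5.01, 0.873, 1.22 and 2.33 CPM in sgCon and 0.255, 0.0646, 9.54, 11.7 and 12.7 CPM in sgTaz, a log2 fold change of 1.34 (SE 0.96). In both genes the sgTaz tumors held the 3 highest and the 2 lowest values of the series. Cidea, a droplet gene of brown fat, had no more than 5 counts in any tumor.

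G0s2, the gene of an inhibitor of the lipase ATGL, behaved differently. It measured 7.99, 11.7, 4.68, 5.11 and 15.9 CPM in sgCon and 1.59, 2.65, 7.71, 4.13 and 6.11 CPM in sgTaz. The 2 highest tumors were sgCon tumors 5 and 2, and the 2 lowest were sgTaz tumors 1 and 2. Its log2 fold change of -1.03 (SE 0.45) was the lowest of the list, with an edgeR adjusted p of 0.212 and an exact permutation p of 0.0873. Among the sgTaz tumors alone, tumors 1 and 2 were again below tumors 3, 4 and 5.

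The 3 tested genes of fatty acid uptake shared their 3 highest tumors with Adipoq. Fabp4, the fatty acid binding protein of adipocytes, which macrophages and endothelium also express, had the highest CPM of the list. It measured 65.1, 82.3, 48.7, 83.3 and 73.5 CPM in sgCon and 49.8, 34.4, 151, 119 and 134 CPM in sgTaz (log2 fold change 0.47, SE 0.36). Lpl, lipoprotein lipase, measured 15.7, 19.4, 17.8, 8.05 and 15.9 CPM in sgCon and 6.75, 8.14, 20.8, 33.7 and 37.5 CPM in sgTaz (log2 fold change 0.47, SE 0.45). Tumor 4 of sgCon stood with the low sgTaz tumors here. Cd36, a scavenger receptor that takes up fatty acids, measured 15.7, 27.9, 19.7, 20.1 and 15.7 CPM in sgCon and 24.1, 10.3, 49.1, 50.9 and 48.3 CPM in sgTaz, a log2 fold change of 0.88 (SE 0.37; edgeR adjusted p 0.199). For Cd36, sgTaz tumor 1 lay above all sgCon tumors but tumor 2, unlike for Adipoq. Aqp7, the glycerol channel of fat cells, had raw counts of 2, 8, 3, 0 and 2 in sgCon and 0, 0, 7, 5 and 16 in sgTaz and did not pass the filter.

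Of 6 lipolysis genes, 3 passed the filter. Pnpla2, the gene of ATGL, which takes the first fatty acid from triglyceride, lies at chr7:141455198-141460743. It measured 42.5, 50.9, 59.4, 48.3 and 41.8 CPM in sgCon and 59.96, 49.4, 67.2, 56.5 and 62.6 CPM in sgTaz, a log2 fold change of 0.28 (SE 0.11). The edgeR adjusted p was 0.189, that of limma-voom with sample quality weights 0.0381, and the exact permutation p 0.0556. Lipe, hormone-sensitive lipase, which takes the next fatty acid, measured 17.8, 20.1, 25.0, 20.98 and 22.3 CPM in sgCon and 19.99, 18.5, 25.7, 28.5 and 32.7 CPM in sgTaz. Its 3 highest tumors were again sgTaz tumors 3, 4 and 5, at a log2 fold change of 0.24 (SE 0.16). Exons of Lipe share 918 bases with 4732471J01Rik on the opposite strand, and the strand setting of the counting was not stated. Mgll, monoglyceride lipase, measured 14.9, 16.0, 11.9, 17.4 and 16.4 CPM in sgCon and 11.1, 10.4, 25.1, 30.0 and 28.4 CPM in sgTaz (log2 fold change 0.45, SE 0.29), with sgTaz tumors at both ends.

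Of the lipolysis genes below the filter, Ces1d, a carboxylesterase that hydrolyses triglyceride, had raw counts of 4, 15, 7, 0 and 4 in sgCon and 0, 1, 46, 15 and 37 in sgTaz. Its paralog Ces1f had 1, 3, 0, 0 and 0 in sgCon and 0, 1, 11, 6 and 3 in sgTaz. Reads that the near-identical Ces1 genes share could have been assigned to either one or dropped, so these levels are uncertain. Pnpla3, a relative of ATGL that is under lipogenic control, had 4, 10, 4, 1 and 2 in sgCon and 0, 1, 20, 13 and 21 in sgTaz, and 105 of its exon bases are shared with Gm49513 on the same strand.

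Both transcription factors of the program passed the filter. Pparg measured 2.34, 2.50, 1.68, 3.39 and 1.64 CPM in sgCon and 2.55, 1.29, 4.23, 4.37 and 3.71 CPM in sgTaz (log2 fold change 0.48, SE 0.33), so sgTaz tumors 3, 4 and 5 were highest by a small margin over sgCon tumor 4. Cebpa, which myeloid cells also express, measured 18.1, 36.3, 36.6, 43.6 and 24.2 CPM in sgCon and 40.8, 32.8, 36.7, 48.2 and 43.4 CPM in sgTaz (log2 fold change 0.34, SE 0.21). No order of the tumors shared with Adipoq was seen for Cebpa. Adig, adipogenin, had at most 15 counts.

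Among 6 genes of triglyceride synthesis and its supply the pattern split. Gpd1, which makes glycerol 3-phosphate from a glycolytic intermediate, measured 2.28, 3.003, 1.87, 1.05 and 1.78 CPM in sgCon and 1.27, 0.840, 9.91, 7.53 and 8.88 CPM in sgTaz (log2 fold change 1.501, SE 0.61, edgeR adjusted p 0.192). Pck1, which starts glyceroneogenesis in fat, at chr2:173153048-173159273, measured 1.38, 1.80, 0.437, 0.888 and 1.51 CPM in sgCon and 0.191, 0.0646, 10.1, 7.28 and 11.6 CPM in sgTaz (log2 fold change 2.27, SE 0.96, edgeR adjusted p 0.201). Both suppliers of the glycerol backbone therefore had their 3 highest values in sgTaz tumors 3, 4 and 5. Exons of Gpd1 share 384 bases with Gm16537 on the opposite strand. Thrsp, a lipogenic protein of the nucleus and cytosol, measured 0.480, 1.55, 1.06, 0.278 and 0.0685 CPM in sgCon and 0.446, 0, 4.23, 3.97 and 8.29 CPM in sgTaz (log2 fold change 2.25, SE 0.99).

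Of the acyltransferases of the same pathway, Agpat2 and Dgat1 did not share that order, and Dgat2 shared it in part. Agpat2 measured 28.4, 30.8, 25.9, 28.2 and 24.2 CPM in sgCon and 31.6, 33.5, 31.2, 31.3 and 29.1 CPM in sgTaz, a small difference (log2 fold change 0.19, SE 0.08) with an exact permutation p of 0.0159 and an edgeR adjusted p of 0.226. Dgat2, one of the 2 enzymes of the last step, measured 4.92, 8.11, 4.62, 2.22 and 5.75 CPM in sgCon and 2.42, 2.39, 7.93, 6.07 and 9.17 CPM in sgTaz, with a log2 fold change of 0.12 (SE 0.43). Although the lows and highs of Dgat2 fell in both groups, its level followed that of Adipoq over all tumors (Pearson's r of log2 CPM 0.83). Dgat1, the other enzyme of that step, at chr15:76502015-76511953, was lower in every sgTaz tumor. It measured 18.6, 19.0, 18.5, 19.9 and 22.5 CPM in sgCon and 15.1, 16.5, 12.5, 14.4 and 14.6 CPM in sgTaz.

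The groups did not overlap for Dgat1. Means were 19.7 ± 1.68 CPM in sgCon and 14.6 ± 1.46 CPM in sgTaz (SD, n = 5), and the log2 fold change was -0.43 (SE 0.10). The exact permutation p was 0.00794, the smallest that 5 against 5 tumors allow. Adjusted over all genes, p was 0.0960 by edgeR's quasi-likelihood test, 0.0112 by DESeq2 and 0.0229 by limma-voom with sample quality weights, so the call depended on the method. The difference was larger than the spread between tumors. Dgat1 was also the one tested member with a negative r with Adipoq over the 10 tumors. That r was -0.43, with a permutation p of 0.217 and 0.578 after adjustment over all genes, so an opposite course was not shown. Dgat1 is expressed in most tissues and is not a marker of fat cells alone.

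Car3, carbonic anhydrase 3, an abundant enzyme of fat and slow muscle at chr3:14863512-14872523, had the largest within-group SD of log2 CPM of the list, 2.44. It measured 6.79, 12.7, 2.37, 2.39 and 3.77 CPM in sgCon and 1.08, 0.323, 32.6, 46.4 and 57.7 CPM in sgTaz (log2 fold change 2.29, SE 1.02, edgeR adjusted p 0.222, exact permutation p 0.571). The lowest and highest values of the series were thus both in sgTaz, in tumors 2 and 5. Sncg, gamma-synuclein, measured 1.26, 3.85, 4.99, 1.72 and 4.18 CPM in sgCon and 2.61, 0.646, 3.59, 4.61 and 4.44 CPM in sgTaz. Nnat, neuronatin, measured 1.02, 0.701, 0.998, 1.05 and 1.64 CPM in sgCon and 0.0636, 1.03, 1.39, 1.94 and 1.09 CPM in sgTaz. For Sncg and Nnat the group means were nearly equal, with log2 fold changes of -0.01 (SE 0.49) and 0.03 (SE 0.52).

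Genes of insulin-driven glucose uptake were low. Slc2a4, the insulin-responsive glucose transporter of fat and muscle, measured 1.98, 1.05, 0.873, 0.555 and 1.30 CPM in sgCon and 0.382, 0.581, 1.82, 1.13 and 2.62 CPM in sgTaz. Tusc5 (Trarg1), which helps to traffic that transporter, measured 2.22, 2.60, 1.06, 2.55 and 3.42 CPM in sgCon and 0.891, 1.29, 4.34, 3.56 and 3.57 CPM in sgTaz. Their log2 fold changes were 0.18 (SE 0.50) and 0.20 (SE 0.44). The receptors of the list were all below the filter. Adrb3, the adrenergic receptor through which catecholamines start lipolysis, had raw counts of 6, 6, 5, 1 and 7 in sgCon and 1, 1, 21, 10 and 18 in sgTaz. Acvr1c, a receptor of activin-like ligands, had at most 13 counts and Klb, the co-receptor of the fibroblast growth factor FGF21, at most 7. Exons of Adrb3 share 839 bases with Gm45470 and those of Acvr1c 168 bases with Gm13544, each on the opposite strand. Among the genes below the filter, Lep, Pnpla3, Adrb3, Ces1d, Ces1f, Klb and Adig had their 3 highest CPM values in sgTaz tumors 3, 4 and 5. Their counts were too low for a test, and the share of this order among genes of like count was not computed. In those tumors Ces1f had 11, 6 and 3 counts, Klb 7, 2 and 7 and Adig 15, 7 and 3, so their order is uncertain.

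**Figure D3:**
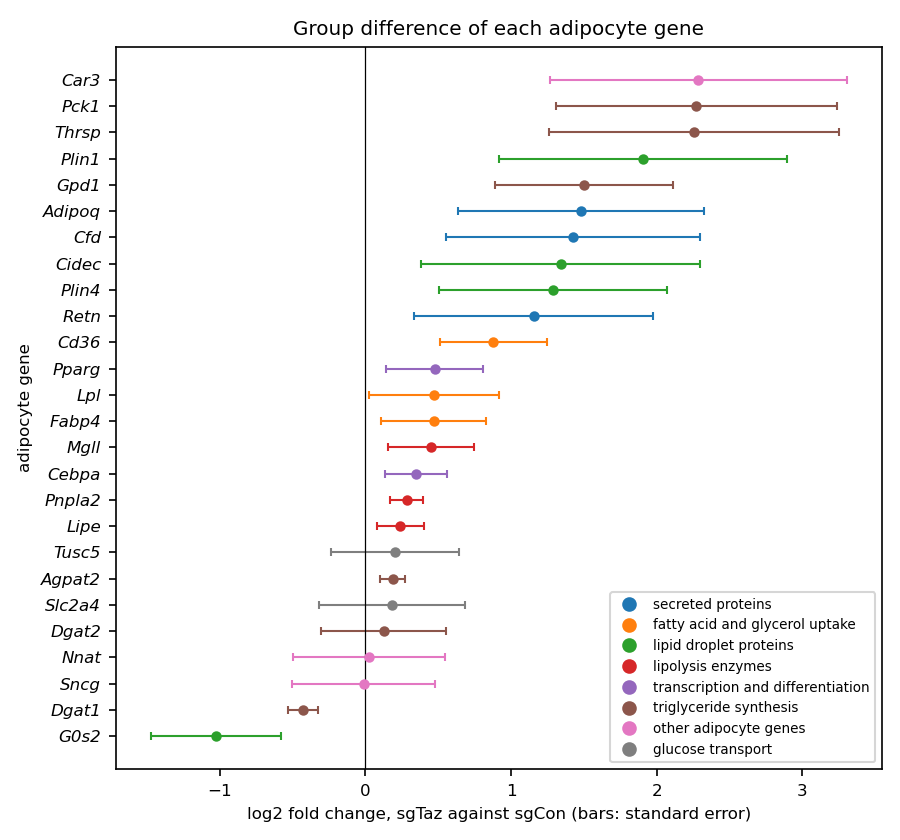
Log2 fold change of each tested adipocyte gene in sgTaz against sgCon (dots, colored by role) with its standard error (bars), from the edgeR fit over all genes. Most dots lie right of 0 with long bars, from Car3 at 2.29 down to Nnat at 0.03, and Dgat1 at -0.43 and G0s2 at -1.03 lie left of it.

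Per kilobase of annotated exon, the ordering of levels was different from that in CPM alone. In sgCon, Pnpla2 at 16.1, Cfd at 15.7 and Fabp4 at 15.7 CPM per kb led the list, followed by Agpat2 at 12.9, Cebpa at 12.1 and G0s2 at 10.4. Adipoq stood at 1.66 and Car3 at 1.96 CPM per kb. In sgTaz, Cfd was highest at 42.2 CPM per kb, followed by Fabp4 at 21.8 and Pnpla2 at 19.6, with Adipoq at 4.66 and Car3 at 9.64. The annotation joins the Fabp4 exons into 1 block of 4489 bases that includes introns, so its level per kb is understated. The genes most abundant per length in sgCon thus included several that many cell types express (Pnpla2, Agpat2, Cebpa). Adipocyte markers were not alike in level. In sgCon, Adipoq, Plin1 and Cidec lay between 0.253 and 1.66 CPM per kb, while Cfd stood at 15.7.

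The adipocyte genes varied together over the 10 tumors. With Adipoq as the reference, Pearson's r of log2 CPM was at least 0.8 for 14 of the other 25 tested members, against 1.71% of 14815 genes. The median r was 0.84 over the members and 0.01 over all genes. Spearman's rho reached 0.8 for 13, against 1.61%. With the group means taken off, r was at least 0.8 for 15, against 2.37%. No member then had an adjusted permutation p under 0.05. This r pools both groups, and the SD of log2 CPM of Adipoq was 1.23 in sgCon and 2.19 in sgTaz. Common variation within each group on its own was not tested. When sgTaz tumor 1 and sgCon tumor 3, which lay farthest from the Adipoq median, were left out, it was 15, against 5.22%. On the log2 scale, Adipoq stood at 2.01, 2.03, -0.68, -0.06 and 1.25 in sgCon and -0.98, -0.15, 3.09, 3.44 and 3.58 in sgTaz. No sgTaz tumor lay between -0.15 and 3.09, whether the tumors form separate clusters was not tested, and no r can be given within smaller sets of tumors. All of these relations share the same 10 libraries.

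The 2 highest correlations of the whole table with Adipoq were both with members. Plin4 had r = 0.990 (permutation p = 1e-05, the smallest that 100000 permutations can give, adjusted over all 14815 genes 0.0423) and rho = 0.964 (permutation p = 5.0e-05, adjusted 0.0889). Cfd had r = 0.987 (permutation p = 2.0e-05, adjusted 0.0423) and rho = 0.988 (permutation p = 2.0e-05, adjusted 0.0889). With group means taken off, r was 0.991 for Plin4 and 0.990 for Cfd, at an adjusted permutation p of 0.105, and without the 2 farthest tumors it was 0.989 and 0.988. These were the 2 of 25 members with an adjusted p for r under 0.05, against 0.0405% of all genes.

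Next in order came Plin1 at r = 0.93, Pck1 at 0.93, Car3 at 0.93 and Cidec at 0.93, then Gpd1 at 0.90, Retn at 0.89, Mgll at 0.89, Tusc5 at 0.86, Lpl at 0.86, Fabp4 at 0.85, Slc2a4 at 0.84 and Dgat2 at 0.83. This group held the perilipins, the secreted proteins, the glycerol backbone enzymes and the uptake genes Lpl and Fabp4. The 11 members below 0.8 were led by Thrsp at 0.73, Cd36 at 0.72, Pparg at 0.65, Lipe at 0.58, Nnat at 0.56 and G0s2 at 0.50. G0s2 came to 0.84 once group means were taken off. The lowest were Sncg at 0.38, Pnpla2 at 0.19, Agpat2 at 0.13, Cebpa at 0.04 and Dgat1 at -0.43. Over the 325 pairs of tested members the median r was 0.66, and it was at least 0.8 in 108 pairs.

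**Figure D4:**
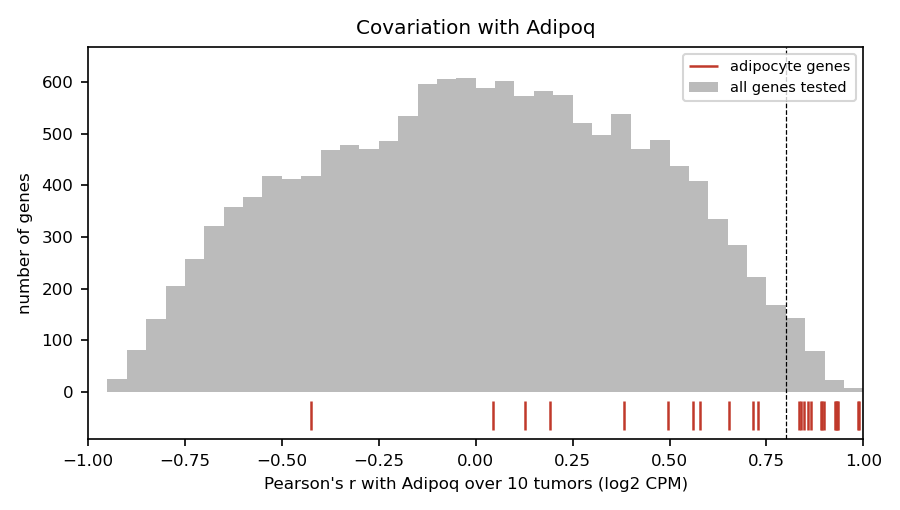
Histogram of Pearson's r with Adipoq over 10 tumors for all tested genes (grey bars, number of genes per bin of r), with each adipocyte gene as a red tick below and a dashed line at 0.8. The histogram is centred near 0, while 14 of the 25 ticks lie right of the dashed line and 1, that of Dgat1, lies left of 0.

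Outside the list, the 10 genes with the highest r with Adipoq among those with a mean of at least 1 CPM were Hp, Svep1, Tppp, Kdr, Zmpste24, Col14a1, Ubxn2b, Gm43080, Gm37776 and Tut7, with r between 0.93 and 0.99 over the 10 tumors. Hp, haptoglobin, an acute phase protein made by liver and fat, measured 62.3, 79.6, 20.02, 29.7 and 61.4 CPM in sgCon and 19.1, 22.0, 129, 120 and 128 CPM in sgTaz (r = 0.99). Kdr, the main endothelial receptor of VEGF, measured 44.6, 41.9, 27.2, 35.4 and 32.9 CPM in sgCon and 28.7, 27.0, 51.9, 64.3 and 58.4 CPM in sgTaz (r = 0.95). Col14a1, a fibril-associated collagen of connective tissue, measured 30.0, 42.4, 21.4, 22.6 and 25.3 CPM in sgCon and 17.8, 15.9, 45.8, 55.4 and 64.5 CPM in sgTaz (r = 0.95). All 3 had their highest values in sgTaz tumors 3, 4 and 5. Tut7, at 132 to 155 CPM, ranged far less over the tumors although its r was 0.93.

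Further genes of adipocytes and lipogenesis, which many other cells use as well, were read as a second list. Of 28 listed, 27 were tested and 0 were called. A log2 fold change above 0 was found in 17, against 47.0% of all genes, and below 0 in 10, and the median was 0.09. At an unadjusted p under 0.05, 4 were higher in sgTaz, against 9.86% of all genes, and 3 lower, against 11.9%. Tumors 3, 4 and 5 of sgTaz were highest in 5 of them, against 4.37%. The same shares of all genes stand beside the counts of the further lists below. The summed level was 2061 to 2504 CPM in sgCon and 2269, 2199, 2835, 2789 and 2801 CPM in sgTaz tumors 1 to 5, so those 3 tumors were also highest in the sum. Scd1, stearoyl-CoA desaturase, chosen after its values were seen, measured 146, 169, 184, 62.2 and 157 CPM in sgCon and 48.8, 21.4, 357, 329 and 427 CPM in sgTaz. The most abundant were Cavin1 at 366 ± 70.1 CPM in sgCon and 384 ± 42.5 in sgTaz, Cebpb at 311 ± 65.0 and 284 ± 42.1, Fasn at 259 ± 71.7 and 307 ± 52.4, and Plin2, the perilipin of most cell types, at 232 ± 27.4 and 199 ± 24.9 (SD, n = 5).

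Genes of brown and beige adipocytes were mostly near 0. Of 12 listed, 5 were tested, 1 with a log2 fold change above 0 and 4 below, 1 was higher at an unadjusted p under 0.05, 0 were called, 7 had fewer than 10 counts in every tumor and Zic1 had 0 in all. Dio2, a deiodinase that other cell types also express, was the most abundant at 42.3 ± 31.2 CPM in sgCon and 91.7 ± 33.1 in sgTaz, followed by Otop1 at 3.99 ± 2.56 and 3.21 ± 0.85. Ucp1, the uncoupling protein that defines brown fat, reached at most 0.268 CPM, in sgTaz tumor 3.

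Markers of other cells were read for the same tumors. Of 10 macrophage genes, 10 had a log2 fold change above 0 (median 0.48), 5 were higher at an unadjusted p under 0.05, 0 were called, and 5 had their 3 highest values in sgTaz tumors 3, 4 and 5. Their summed level was 1485 to 2920 CPM in sgCon and 2945, 2360, 3222, 3297 and 3543 CPM in sgTaz tumors 1 to 5. Of 8 genes of capillary endothelium, 6 were above 0 and 2 below, 0 were called, and the sum was 437 to 633 CPM in sgCon and 443, 363, 615, 738 and 664 CPM in sgTaz. Of 10 genes of adipose stromal and progenitor cells, 6 were above 0 and 4 below, 1 was higher and 1 lower at an unadjusted p under 0.05, 0 were called, and the sum was 621 to 751 CPM in sgCon and 661, 749, 789, 896 and 871 CPM in sgTaz. The sums of these 3 lists were higher in sgTaz tumors 3, 4 and 5 than in sgTaz tumors 1 and 2, as those of the adipocyte genes were, and their part in the adipocyte result was not tested.

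Other host tissues were read in the same way. Of 13 skeletal muscle genes, 5 were tested, 1 above 0 and 4 below, 1 lower at an unadjusted p under 0.05, 0 were called, and the sum was 33.4 to 71.9 CPM in sgCon and 21.1, 72.8, 18.3, 15.5 and 23.4 CPM in sgTaz, with its highest value in sgTaz tumor 2. Most of that value came from Tnni2 at 38.2 CPM and Tnnt3 at 30.3 CPM, while the defining muscle genes Acta1, Ckm and Myh4 measured 0.0646, 0.323 and 0 CPM there and were highest in sgCon tumor 3, at 9.42, 6.18 and 13.7 CPM. Lymph node stroma genes, 5 tested of 8 listed, all had log2 fold changes below 0, 0 were called, and the sum was 142, 162, 807, 40.0 and 285 CPM in sgCon and 1.65, 1.55, 5.36, 7.61 and 385 CPM in sgTaz. All 8 B cell genes were below 0, 7 of them at an unadjusted p under 0.05 and 0 called, with sums of 142, 209, 881, 68.1 and 397 CPM in sgCon and 7.89, 7.56, 21.7, 12.1 and 195 CPM in sgTaz. For both lymphoid lists sgTaz tumors 1 to 4 lay below every sgCon tumor, and within sgTaz tumors 1 and 2 were the lowest, as they were for the adipocyte sum. Of 8 genes of lactating mammary epithelium, 2 were tested, both above 0, 0 were called, and the sum was 2.33 to 20.6 CPM in sgCon and 2.52 to 13.4 CPM in sgTaz.

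All 10 genes of the epithelial tumor cells had log2 fold changes below 0, with a median of -0.47, 4 were lower at an unadjusted p under 0.05, and 0 were called. Their sum was 5171, 2762, 2157, 3190 and 3373 CPM in sgCon and 1654, 4064, 2138, 2083 and 2238 CPM in sgTaz. Tumor 1 of sgTaz was the lowest for these genes and also low for adipocyte genes, while sgTaz tumor 2, the lowest for adipocyte genes, was the second highest for these.

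**Figure D5:**
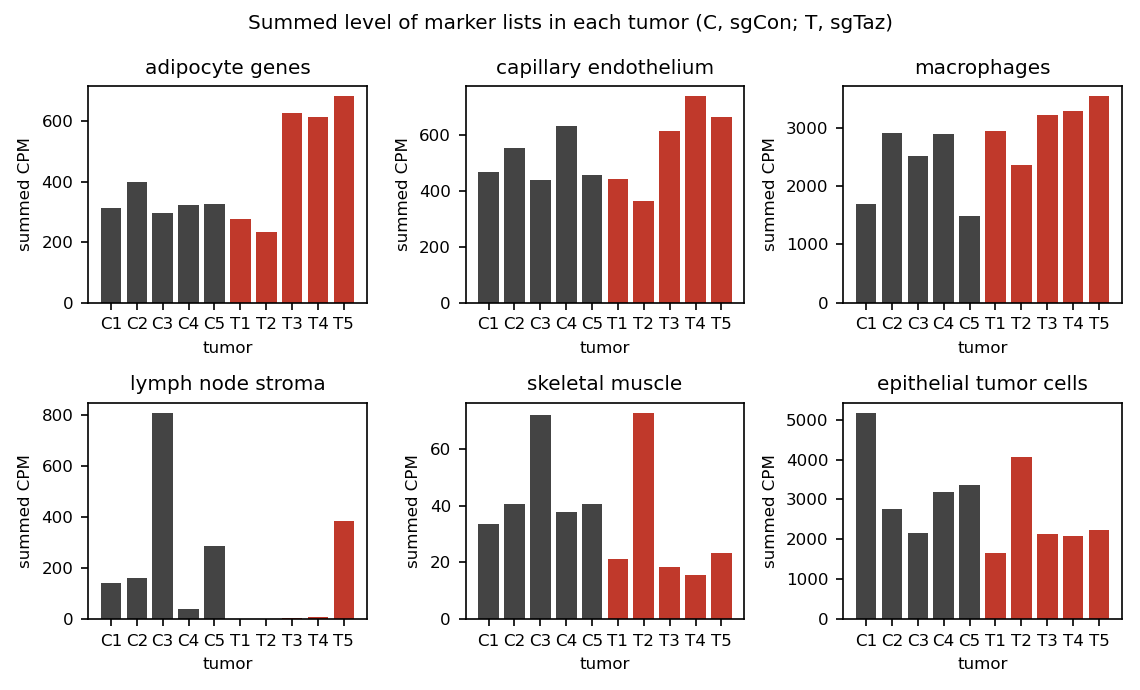
Summed CPM of 6 gene lists in each tumor (bars from 0; C, sgCon; T, sgTaz; numbers are tumor numbers), with a separate vertical scale for each list. Adipocyte genes sum to 232 to 682 CPM in sgTaz with tumors 3, 4 and 5 highest, the macrophage sum is also highest in those tumors, the endothelial sum is highest in sgTaz tumors 4 and 5 followed by sgCon tumor 4 at 633 CPM, and the lymph node sum is highest in sgCon tumor 3 at 807 CPM.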

How the data were processed

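RNA of 5 sgCon and 5 sgTaz tumors was analysed from the deposited table of raw read counts per gene. Per the study's methods and processing notes, the authors mapped reads to mm10 with GENCODE annotation by STAR in its 2-pass mode, checked them with RSeQC and obtained counts with featureCounts of Subread, and the notes also name CASAVA. The methods give the GENCODE release as v12, which was not matched to a mouse release here. Tool versions and the strand setting are not given in the sources used here. Of 15 columns, 5 match no sample of the labels and were not used. Identifiers were named from GENCODE M21 (17860 of 17864). Overlapping exons of genes were taken from the same annotation. Any pair of tumors of a group differed by a chi-square of at least 6.155 per degree of freedom, more than sampling noise. Nothing states that tumors came from separate experiments.

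Counts were tested in edgeR 4.0.16 (R 4.3.3; filterByExpr, TMM, quasi-likelihood, Benjamini-Hochberg over 14816 genes, threshold 0.05). The study used DESeq2, which is an alternative here (1.42.0), as is limma-voom with sample quality weights (limma 3.58.1). Other alternatives were RLE and upper-quartile factors, no filter, at least 10 counts in every tumor, a replicate block, leaving out each tumor, a prior count of 0.5, and, chosen after the data were seen, correlation with the mean of the other members and leaving out 2 tumors. Log2 CPM used a prior count of 2. Exact permutation tests (252 splits) and correlations with Adipoq (100000 permutations, 14400 within groups) were two-sided and run in Python 3.11.15 with SciPy 1.17.1. The fits were tested on simulated data. The members and all gene lists were chosen with earlier results of these data known. The other marker lists were given mostly as counts and sums. Named were all members, with values per tumor for those with a mean of at least 1 CPM in a group, and the 10 genes most correlated with Adipoq. Up to 4 of the most abundant genes were also named for the second adipocyte, the brown and beige and the skeletal muscle lists. Wwtr1, Ucp1, Acta1, Ckm, Myh4, Zic1 and Scd1 were named beside this rule. Promoters are from RefSeq, and Fdcsp and Wap, of the marker lists, had no row.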

Additional observations from a re-analysis of the deposited data

Results flagged for a closer look

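Values far from the rest of their group were looked for in the log2 CPM of the 26 tested members and their mean in each group. By Dixon's test, 2 of 54 groups of 5 tumors held one, where chance gives 2.7 (1 in 20). Nnat stood at -2.41 in sgTaz tumor 1, with the other sgTaz tumors at 0.21 to 1.05. Lpl stood at 3.03 in sgCon tumor 4, with the other sgCon tumors at 3.98 to 4.29.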

How the results depend on the processing

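The number of members called was 0 by edgeR and stayed at 0 with RLE or upper-quartile factors, no filter, at least 10 counts in every tumor, the replicate block and each tumor left out (0 to 0, in each direction). DESeq2 called 1 (0 higher, 1 lower) and limma-voom with sample quality weights 2 (1 higher, 1 lower). Over all genes edgeR called 1, DESeq2 1069, limma-voom 1546, the fit without a filter 0, the fit with at least 10 counts 5, the replicate block 0, and the fits without 1 tumor 0 to 172, the most without sgTaz tumor 5. The cause of these differences was not tested. The tumor numbers do not pair the groups: deviations of same-numbered tumors correlated at -0.15, -0.24, -0.05, 0.09 and 0.22, and 1 of 5 sgCon tumors correlated best with its number. With the replicate block the Adipoq log2 fold change was 1.21 (edgeR adjusted p 0.670).

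Without 1 tumor, the median log2 fold change ran from 0.32 to 0.68, that of Adipoq from 1.14 to 1.79, the difference in mean log2 CPM from 0.07 (without sgTaz tumor 5) to 0.74 (without sgTaz tumor 2), and the number of members correlated with Adipoq from 12 to 15. The median was 1.02 without a filter, where the 10 members of low count also entered it, so it covers a different set of genes. The adjusted p of Adipoq was 0.197 to 0.670 over all alternatives and that of Dgat1 0.0112 to 0.233. Of 433 single-gene values, 414 kept their direction and side of the threshold, 3 passed it and 16 reversed, in 5 genes near 0. Sncg turned to 0.18 by limma-voom and 0.018 without a filter, and Nnat to -0.14 with the replicate block. Without 1 tumor, log2 fold changes ran from -0.12 to 0.36 for Dgat2, -0.22 to 0.47 for Slc2a4, -0.037 to 0.43 for Tusc5, -0.21 to 0.25 for Sncg and -0.26 to 0.34 for Nnat. Those of 6 other members moved by over 1.5 times from their value with all 10 tumors, which is not the span from lowest to highest. They were Retn (0.76 without sgTaz tumor 3 to 1.73), Fabp4 (0.25 without sgTaz tumor 3 to 0.69), Lipe (0.13 without sgTaz tumor 5 to 0.33), Lpl (0.17 without sgTaz tumor 5 to 0.70), Cebpa (0.20 without sgCon tumor 1 to 0.49) and Mgll (0.29 without sgTaz tumor 4 to 0.62). With the mean of the other members as reference, 16 members correlated at 0.8 or more. Depth limits the 10 members below the filter.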
